A study of Mus musculus with 20 samples.

Results

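Osteoclasts are large cells with many nuclei that form when macrophage precursors fuse, and they dissolve bone by pumping acid and secreting proteases beneath a sealed rim of attachment. Macrophages that cannot engulf a long fiber can also fuse into multinucleated giant cells, and some of the same genes are used in both. The signal that drives osteoclast formation is RANKL, the product of Tnfsf11, which binds its receptor RANK (Tnfrsf11a) on the precursor. Osteoprotegerin (Tnfrsf11b) is a secreted decoy receptor that binds RANKL and keeps it from RANK. Signals from RANK, along with costimulation through receptors such as Oscar, raise the transcription factor Nfatc1, which turns on effector genes. The effectors measured here were Atp6v0d2, a subunit of the vacuolar proton pump, the collagen-degrading protease cathepsin K (Ctsk), tartrate-resistant acid phosphatase (Acp5), and the integrin subunit β3 (Itgb3).

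These 9 genes were measured in the diaphragm of mice exposed to asbestos or carbon nanotubes. They were taken by the gene name in the array files, and they account for 13 of the 55681 noncontrol probes and 9 of 34797 different gene names. The genes were selected on their signals in these same groups, with the changes of LFA and NTL from control already known, so the differences between groups given for them are a description, and no p-value is attached to any of them. There were 5 groups of 4 female C57Bl/6 mice, injected in the pleural cavity at 8 weeks of age and killed 12 weeks later. The control group received 0.5% BSA/saline alone, the vehicle that every group received. SFA (short amosite asbestos, milled from long fibers) and LFA (the same amosite enriched for long fibers) were given at 25 μg per mouse, and carbon nanotubes at 5 μg, short ones in NTS and long ones in NTL. The RNA came from a frozen piece of whole diaphragm, so more cells of a type and more RNA per cell cannot be told apart. Each value is the log2 of a probe's signal after division by the array's 75th percentile, called the log2 signal below, and levels are compared between groups for 1 probe at a time. The fit in limma took all 20 arrays and the 36920 probes that exceeded background clearly on 4 or more of them, and a change of 2-fold or more whose adjusted p (Benjamini-Hochberg) fell under 0.05 counted as a call. All 13 probes of the 9 genes were among these. The arrays held 59305 spots each, of which 53.0% to 68.1% were well above background and 0 were saturated, and the number of arrays, 4 per group, limits the precision.

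Of the 9 genes, Tnfsf11, Tnfrsf11b, and Atp6v0d2 were high in the mice given either long fiber and Ctsk in those given long nanotubes, and the other 5 were not. Atp6v0d2 changed most, by 4.14 ± 0.82 (log2 change from control ± SE, n = 4) in LFA and 4.60 ± 0.82 in NTL. The receptor Tnfrsf11a, the transcription factor Nfatc1, and Acp5, a standard osteoclast marker, stayed within 0.44 of control in both. Oscar was lower in both. The set therefore did not move as a block, and it is described gene by gene. In LFA 3 of the 9 genes were called, all higher, where 2.21% of all tested probes were called higher, 1.75% lower, and 3.96% in either direction. In NTL 4 were called, all higher, against 3.64% higher, 3.16% lower, and 6.8% in either direction. In SFA and NTS limma called 0 of the 9 genes and 0% of all probes, with 0 and 1 of the genes, and 2.3% and 3.52% of all probes, at an unadjusted p under 0.05. Every LFA array was above every control array for 3 of the genes, as for 4.56% of all probes, and every NTL array for 4, as for 6.36%. Nothing is read from these shares, since the same signals had been used to choose the genes.

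**Figure D1:**
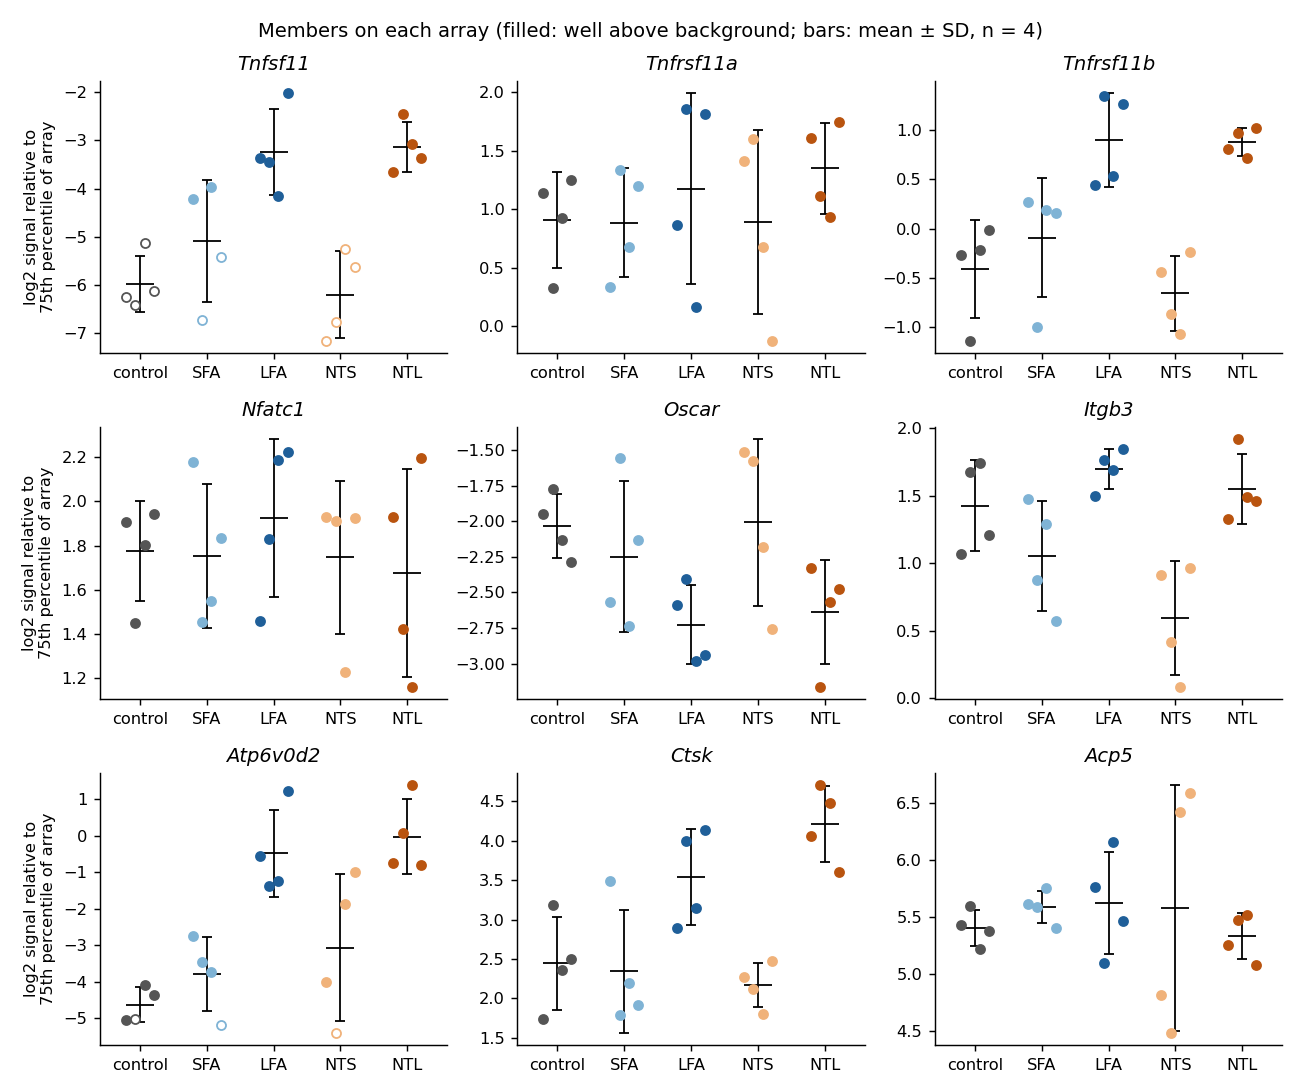
Log2 signal of the brightest tested probe of each of the 9 genes on all 20 arrays, by group, with the group mean and SD (n = 4). Filled points were well above background and open points were not. Every LFA and NTL array lies above every control array for Tnfsf11, Tnfrsf11b, and Atp6v0d2, and below every control array for Oscar.

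Tnfsf11, the ligand, was measured by a probe at chr14:78677444-78677503 (minus strand, NCBI37, the build of the array files). Its log2 signal was −6.24, −6.41, −5.13, and −6.13 in the control mice, and it was not well above background on any of these arrays. In LFA it was −3.36, −3.44, −4.16, and −2.03, and in NTL −3.65, −2.45, −3.08, and −3.36. All 8 long-fiber arrays were well above background and above every control array. The short fibers gave −4.21, −6.73, −3.98, and −5.41 in SFA, where replicates 1 and 3 were well above background, and −7.16, −6.76, −5.26, and −5.64 in NTS, where none was. SFA thus spanned the gap between the control and the long-fiber groups, while NTS overlapped with control. Since the control signal is only a bound, the signal of Tnfsf11 exceeded control at least 3.71-fold in LFA and at least 4.01-fold in NTL, and that of NTL exceeded NTS at least 3.61-fold. The fitted log2 changes were 2.73 ± 0.58 and 2.85 ± 0.58, and within slides the difference from control was between 1.69 and 3.04 for LFA and between 2.17 and 2.67 for NTL. With normexp background correction, which adds an offset of 50 to every signal and so shrinks the changes of dim probes, the changes were 0.58 and 0.54 and Tnfsf11 was not called. Without LFA replicate 4, the highest array, it was not called in LFA either. From lowest to highest the groups ran NTS, control, SFA, LFA, NTL, and each overlapped with the next.

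Tnfrsf11b, the decoy receptor, was above background on all 20 arrays (probe at chr15:54082760-54082819, minus strand, NCBI37). It read −0.27, −1.14, −0.21, and −0.01 in control, 0.44, 1.35, 0.54, and 1.26 in LFA, and 0.81, 0.97, 0.72, and 1.03 in NTL. No long-fiber array came as low as the highest control array, and NTL was the tightest group with an SD of 0.14. SFA read 0.27, −0.99, 0.19, and 0.16, and NTS −0.45, −0.87, −1.07, and −0.24, so both short-fiber groups overlapped with control. The log2 change was 1.31 ± 0.33 in LFA and 1.29 ± 0.33 in NTL, and within slides it was 0.91 to 1.56 in LFA and 1.12 to 1.51 in NTL. It was the least secure of the 4 genes, because it was no longer called in LFA without LFA replicate 2 or 4 or control replicate 1 or 2, nor in NTL without NTL replicate 2 or 4 or control replicate 2. With slide as a block it was called in neither, and with no filter on dim probes it was not called in LFA. The order was NTS, control, SFA, NTL, LFA, and the only neighbors that did not overlap were SFA and NTL. The RANKL and osteoprotegerin genes thus read high in the same mice, and as probe signals cannot be set against each other, their ratio was not computed.

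Tnfrsf11a, the receptor for RANKL, showed no separation between the groups (probe at chr1:107741892-107741951, plus strand, NCBI37). Its log2 signal was 0.91 ± 0.41 (mean ± SD, n = 4) in control, 0.89 ± 0.46 in SFA, 1.17 ± 0.81 in LFA, 0.89 ± 0.78 in NTS, and 1.35 ± 0.39 in NTL. The LFA arrays were split, at 1.86 and 1.81 in replicates 2 and 4 and 0.87 and 0.16 in replicates 1 and 3. Replicates 1 and 3 were also the LFA arrays with a high summed signal of liver markers, as given below. The changes from control were 0.26 ± 0.42 in LFA and 0.44 ± 0.42 in NTL. Without the 5 arrays with the highest liver sums, an alternative chosen after seeing the data, the Tnfrsf11a change in LFA was 0.92 and was not called. Its difference between LFA and SFA was then 1.10, against 0.29 with all arrays. Nfatc1, which RANK signaling raises in osteoclast precursors, also showed no separation, and its change in LFA was 0.25 without those 5 arrays. With all arrays Nfatc1 ran from 1.45 to 1.94 in control, 1.45 to 2.18 in SFA, 1.46 to 2.22 in LFA, 1.23 to 1.93 in NTS, and 1.16 to 2.19 in NTL. Its log2 changes were 0.15 ± 0.27 in LFA and −0.10 ± 0.27 in NTL. A second Nfatc1 probe changed by −0.03 ± 0.24 and 0.05 ± 0.24. For both genes every pair of neighboring groups overlapped.

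Oscar, a receptor that costimulates osteoclast precursors, went the other way (probe at chr7:3561419-3561478, minus strand, NCBI37). The log2 signal of Oscar was −1.95, −1.77, −2.13, and −2.29 in control, −2.59, −2.40, −2.98, and −2.94 in LFA, and −2.33, −3.16, −2.57, and −2.48 in NTL. Every LFA and NTL array lay below every control array, an arrangement seen for 11.7% of all tested probes in LFA and 13.8% in NTL. The changes of −0.69 ± 0.31 and −0.60 ± 0.31 were not called. They stand beside a median change over all tested probes of −0.28 in LFA and −0.25 in NTL, and with quantile normalization, which moved those medians to −0.08 and −0.09, they were −0.47 and −0.51. SFA read −2.56, −1.55, −2.74, and −2.14, and NTS −1.52, −1.58, −2.18, and −2.76, both overlapping with control.

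Itgb3, which pairs with the αv subunit in the vitronectin receptor that osteoclasts use to attach, was low in the mice given short nanotubes and not high in those given long fibers (brighter probe at chr11:104531672-104531731, plus strand, NCBI37). Its log2 signal was 1.07, 1.68, 1.74, and 1.21 in control and 0.91, 0.42, 0.09, and 0.97 in NTS. Every NTS array was below every control array, as for 0.887% of all tested probes, with a change of −0.83 ± 0.26 that was not called. LFA ran from 1.50 to 1.85 and NTL from 1.32 to 1.92, within or just above the control range, with changes of 0.28 ± 0.26 and 0.12 ± 0.26. A second Itgb3 probe, much nearer to background, gave −0.38 ± 0.38 in NTS, with overlapping groups, and −0.09 and −0.14 in LFA and NTL. The low NTS signal thus rests on 1 of the 2 probes.

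Atp6v0d2 encodes the d2 form of a subunit of the proton pump's membrane part, and it is required for fusion of osteoclast precursors. It had 2 probes, shown here by their first 30 bases to make clear that they read different stretches of the transcript, at chr4:19805367-19805426 and chr4:19804304-19804363 (minus strand, NCBI37).
Atp6v0d2, brighter probe: agcagaatgcatctcacagaggcatcgaac
Atp6v0d2, second probe: acagaaataatgtgaactaattttactata
On the brighter probe the log2 signal was −5.04, −5.02, −4.08, and −4.35 in control, where 3 of the 4 arrays were well above background. It was −0.54, −1.37, −1.24, and 1.23 in LFA and −0.76, 0.09, 1.39, and −0.80 in NTL. The lowest long-fiber array was thus well above the highest control array. SFA read −2.75, −3.45, −3.72, and −5.17. NTS was split, with −4.01 and −5.39 in replicates 1 and 2 and −1.87 and −0.98 in replicates 3 and 4, and it had the largest SD of the 5 groups, 2.01. The summed liver marker signal was 5301 and 4436 multiples of the array's 75th percentile in NTS replicates 3 and 4 against 42.9 and 16.5 in replicates 1 and 2, and its part in the Atp6v0d2 signal was not tested. NTS replicates 1 and 2 also lay on slide 2 and replicates 3 and 4 on slide 1. Slide and liver signal thus cannot be told apart within NTS. The difference of NTS from control was 2.93 on slide 1 and 0.33 on slide 2. Without NTS replicates 3 and 4, an alternative chosen after seeing the data, the change in NTS was −0.08, against 1.56 ± 0.82 with them.
The changes within slides were 4.35, 4.49, and 2.70 in LFA and 4.27 and 4.30 in NTL. With normexp background correction they were 2.25 in LFA and 2.72 in NTL, still called. The second probe was not well above background on any control array, and it put Atp6v0d2 at least 6.09-fold above control in LFA and 11.6-fold in NTL. It also separated NTS replicates 3 and 4 (−3.87 and −3.08) from replicates 1 and 2 (−6.08 and −6.40). The order was control, SFA, NTS, LFA, NTL, each overlapping with the next.

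Ctsk, the protease that degrades collagen in the resorption space, was high with the long nanotubes and overlapped with control with the long asbestos (probe at chr3:95313165-95313224, plus strand, NCBI37). It read 1.74, 3.18, 2.36, and 2.50 in control, 2.89, 4.00, 3.14, and 4.13 in LFA, and 4.06, 4.71, 4.48, and 3.61 in NTL. All NTL arrays lay above all control arrays, while LFA replicates 1 and 3 fell below control replicate 2. SFA read 3.48, 1.79, 2.20, and 1.91, and NTS 2.27, 2.12, 1.81, and 2.47, so neither stood apart. The log2 change was 1.77 ± 0.40 in NTL, called by limma and not by the methods' test, and 1.10 ± 0.40 in LFA, which was not called. The methods' test asks for any difference among the 5 groups and lets the variance differ between them. Within slides the difference from control was 1.60 and 1.90 in NTL and 0.43 to 1.64 in LFA. The arrays with the lower LFA values, replicates 1 and 3, had a liver marker sum of 2006 and 3127, against 17.2 and 33.7 in replicates 2 and 4. Without the 5 arrays with the highest liver sums the change in LFA was 1.62, and it was still not called. Directly, LFA and NTL differed by −0.67 ± 0.40 and were not called apart. The order was NTS, SFA, control, LFA, NTL, all neighbors overlapping.

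Acp5, the phosphatase used to stain osteoclasts, was bright in every group and did not follow fiber length (brighter probe at chr9:21931190-21931249, minus strand, NCBI37). Its log2 signal was 5.43, 5.60, 5.22, and 5.38 in control, 5.77, 5.10, 6.16, and 5.47 in LFA, and 5.25, 5.47, 5.52, and 5.08 in NTL. SFA read 5.61, 5.59, 5.75, and 5.40. NTS was split by a wide gap, with 4.82 and 4.48 in replicates 1 and 2 and 6.42 and 6.59 in replicates 3 and 4, the same arrays that read high for Atp6v0d2. Replicates 1 and 2 were below, and replicates 3 and 4 above, every array of the other 4 groups. Their slides and liver marker sums are those given for Atp6v0d2, and the part of either in the Acp5 signal was not tested. Within slides the difference of NTS from control was 1.13 on slide 1 and −0.86 on slide 2. Changes from control were 0.22 ± 0.38 in LFA, −0.07 ± 0.38 in NTL, and 0.17 ± 0.38 in NTS, which became −0.75 without NTS replicates 3 and 4. The second Acp5 probe overlaps the first over most of its length, so its changes of 0.20 and −0.09 in LFA and NTL are not a separate measurement.

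**Figure D2:**
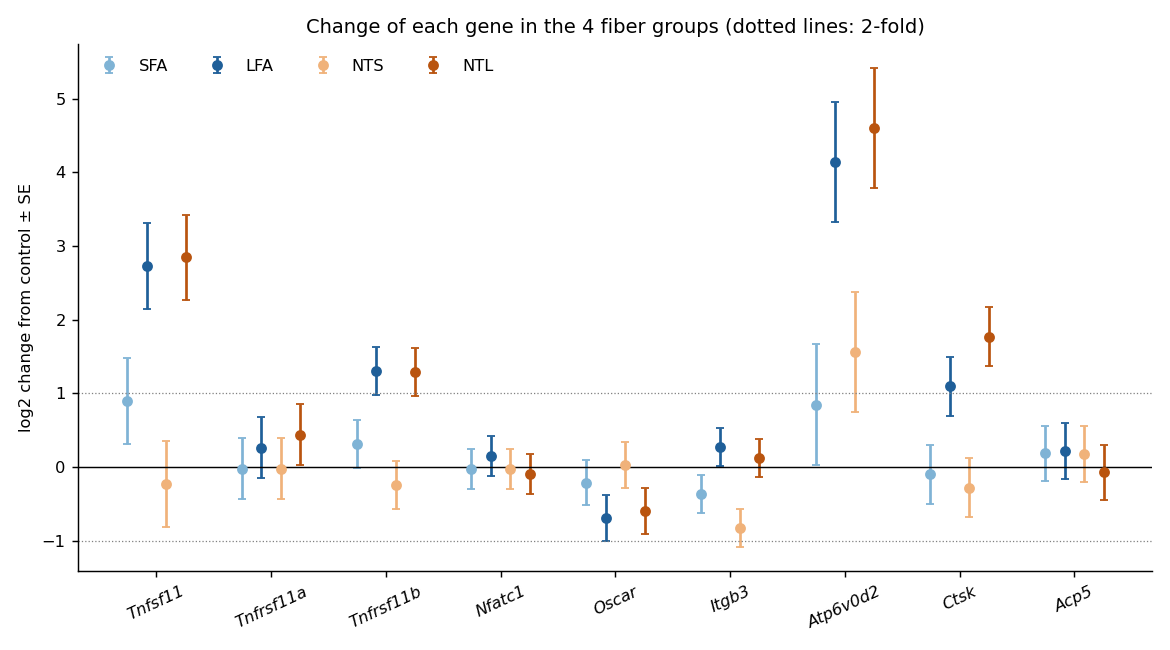
Log2 change from control with its SE for the 9 genes in SFA, LFA, NTS, and NTL (brightest tested probe, n = 4 per group). Dotted lines mark a 2-fold change. Atp6v0d2, Tnfsf11, Tnfrsf11b, and Ctsk lie above the upper line in both long-fiber groups, and Nfatc1, Tnfrsf11a, and Acp5 lie near 0 in all 4 groups.

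Each material was given in a long and a short form, and the groups were compared directly. Both asbestos forms came from the same batch, but the short nanotubes were bought and the long ones made in a university laboratory. Length and source thus cannot be told apart for the nanotubes. Between LFA and SFA limma called 0 of the 9 genes, where 1.16% of all probes were called, with 5 of the genes and 12.6% of all probes at an unadjusted p under 0.05. Atp6v0d2 was 3.29 ± 0.82 higher in LFA, Tnfsf11 1.84 ± 0.58 (with 2 of the 4 SFA arrays well above background), Ctsk 1.20 ± 0.40, and Tnfrsf11b 0.99 ± 0.33, and every LFA array was above every SFA array for Atp6v0d2, Tnfrsf11b, and Itgb3, as for 3.14% of all probes. Atp6v0d2 was called without NTS replicate 2 or 4, which enter through the shared spread. Between NTL and NTS the same 4 genes were called, all higher in NTL, where 4.92% of all probes were called higher and 7.58% in either direction. Every NTL array was above every NTS array for these 4 and for Itgb3, as for 7.66% of all probes. Atp6v0d2 was 3.04 ± 0.82 higher, Ctsk 2.05 ± 0.40, and Tnfrsf11b 1.54 ± 0.33. Itgb3, at 0.95 ± 0.26 higher, fell just short of the 2-fold threshold. It was called with quantile normalization, at 1.02, and without NTS replicate 4, at 1.08. Tnfsf11 was not well above background on any NTS array, so its fitted difference of 3.07 ± 0.58 stands for at least 3.61-fold only. The call of Atp6v0d2 there was lost without NTL replicate 2 or 3 or NTS replicate 1 or 2. That of Tnfsf11 was lost with normexp, that of Tnfrsf11b with slide as a block, and that of Ctsk with the methods' test. Only slide 2 held both NTL and NTS arrays, and there the differences were 3.94 for Atp6v0d2, 1.87 for Ctsk, 1.47 for Tnfrsf11b, and, against the dim NTS signal, 3.31 for Tnfsf11. Without NTS replicates 3 and 4, Oscar was also called, 1.09 lower in NTL. Between LFA and NTL, which were given at different doses, 0 of the 9 genes and 0% of all probes were called by limma, with 0 of the genes and 1.54% of all probes at an unadjusted p under 0.05.

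The start regions of 5 of the 9 genes are in the RefSeq table used here (GRCm38.p6): Ctsk, Acp5, Oscar, Tnfsf11, and Tnfrsf11a. Those of Tnfsf11 and Ctsk, which read high with long nanotubes, and of Oscar, which read low, are shown as the 250 bases before the start, in the direction of transcription. They were searched on both strands for GGAAA (the core bound by NFAT factors such as Nfatc1; TTTCC on the other strand), TGANTCA (AP-1), and CATGTG (an E-box that MITF can bind; CACATG on the other strand), and matches are in capitals. No match overlapped another.
Tnfsf11, chr14:78308044-78308293, minus strand: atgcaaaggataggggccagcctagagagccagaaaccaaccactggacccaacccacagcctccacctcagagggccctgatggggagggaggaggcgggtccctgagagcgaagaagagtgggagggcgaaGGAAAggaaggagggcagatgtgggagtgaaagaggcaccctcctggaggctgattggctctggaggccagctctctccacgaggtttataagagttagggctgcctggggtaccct
Ctsk, chr3:95498960-95499209, plus strand: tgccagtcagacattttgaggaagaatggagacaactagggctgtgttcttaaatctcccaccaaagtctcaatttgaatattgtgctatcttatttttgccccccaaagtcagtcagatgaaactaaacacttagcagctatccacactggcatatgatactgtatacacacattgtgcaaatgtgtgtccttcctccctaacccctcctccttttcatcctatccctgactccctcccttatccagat
Oscar, chr7:3616158-3616407, minus strand: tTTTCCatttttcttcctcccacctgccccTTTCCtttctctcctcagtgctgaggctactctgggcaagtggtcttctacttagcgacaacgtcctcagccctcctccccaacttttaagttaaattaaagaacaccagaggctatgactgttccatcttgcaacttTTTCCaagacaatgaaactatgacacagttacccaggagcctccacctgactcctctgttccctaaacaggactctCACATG
GGAAA matched once in the Tnfsf11 window, 3 times in the Oscar window, and 0 times in the Ctsk window, and CATGTG matched once, near the start site end of the Oscar window. TGANTCA matched in none of them. Acp5, which did not follow fiber length, had 3 windows, not shown here. GGAAA matched in each of these 3, CATGTG once in 1 of them, and TGANTCA in none. In the Tnfrsf11a window, also not shown, none of the 3 sequences matched. Of 32851 RefSeq windows of this length, 55.6% held GGAAA, 6.75% held TGANTCA, and 12.3% held CATGTG. The share of windows with 3 GGAAA matches was not computed. The matches describe these letters and not binding.

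Other genes of the same processes were taken from 4 lists that leave out the 9 genes. These lists, and the marker lists below, were chosen with earlier results of these data known. Their counts and adjusted p-values are thus a description and not independent support. Among all tested probes, 2.21% were called higher in LFA and 3.64% in NTL. In the cell fusion list 5 of 12 tested genes were called higher in LFA and 6 in NTL, and 0 were called lower. The median change was 1.28 and 1.21, beside −0.28 and −0.25 over all tested probes. Trem2, a receptor of lipid-handling macrophages and osteoclast precursors, rose by 3.53 ± 0.39 in LFA and 4.34 ± 0.39 in NTL (limma adjusted p = 0.000113 and 8.86e-06). Its signaling adaptor Tyrobp rose by 1.85 ± 0.35 and 1.99 ± 0.35, and the surface protease Adam8 by 2.11 ± 0.37 and 2.50 ± 0.37. Dcstamp and Ocstamp, membrane proteins needed for osteoclast fusion, were not called. Dcstamp changed by 0.49 ± 0.44 in LFA and 0.90 ± 0.44 in NTL (limma adjusted p = 0.511 and 0.232), and Ocstamp by −1.04 ± 0.45 and −1.22 ± 0.45 (limma adjusted p = 0.175 and 0.108). Ocstamp was below every control array in all 4 NTL mice, as were 13.8% of all tested probes.

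In the acid secretion list, which holds the other subunits of the proton pump and the genes that supply it, 1 of 29 tested genes was called higher in LFA and NTL, and 1 lower in NTL. Over all tested probes 2.21% were called higher in LFA and 3.64% in NTL. Atp6v0d1, the widely expressed form of the same subunit, changed by −0.05 ± 0.30 in LFA and 0.06 ± 0.30 in NTL (limma adjusted p = 0.923 and 0.931). The gene called higher was Tcirg1, the pump's a3 subunit used at the osteoclast membrane and in lysosomes, which rose by 1.50 ± 0.32 and 1.69 ± 0.32 (limma adjusted p = 0.0138 and 0.00331). Carbonic anhydrase 2 (Car2), which makes the protons that the pump moves, fell by 1.68 on the log2 scale in NTL and was not called in LFA. The list's median was −0.09 in LFA and 0.05 in NTL. With only the groups compared in the fit, 0 were called in LFA, and with no filter, slide as a block, or the methods' test 1 was called in NTL. Tcirg1 was not called in LFA without LFA replicate 2 or 4, where the list's count was 0, the count was 2 without NTS replicate 4, and in NTL the count of 2 fell to 1 without any of NTL replicates 1, 2, and 4 and control replicates 2, 3, and 4.

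**Figure D3:**
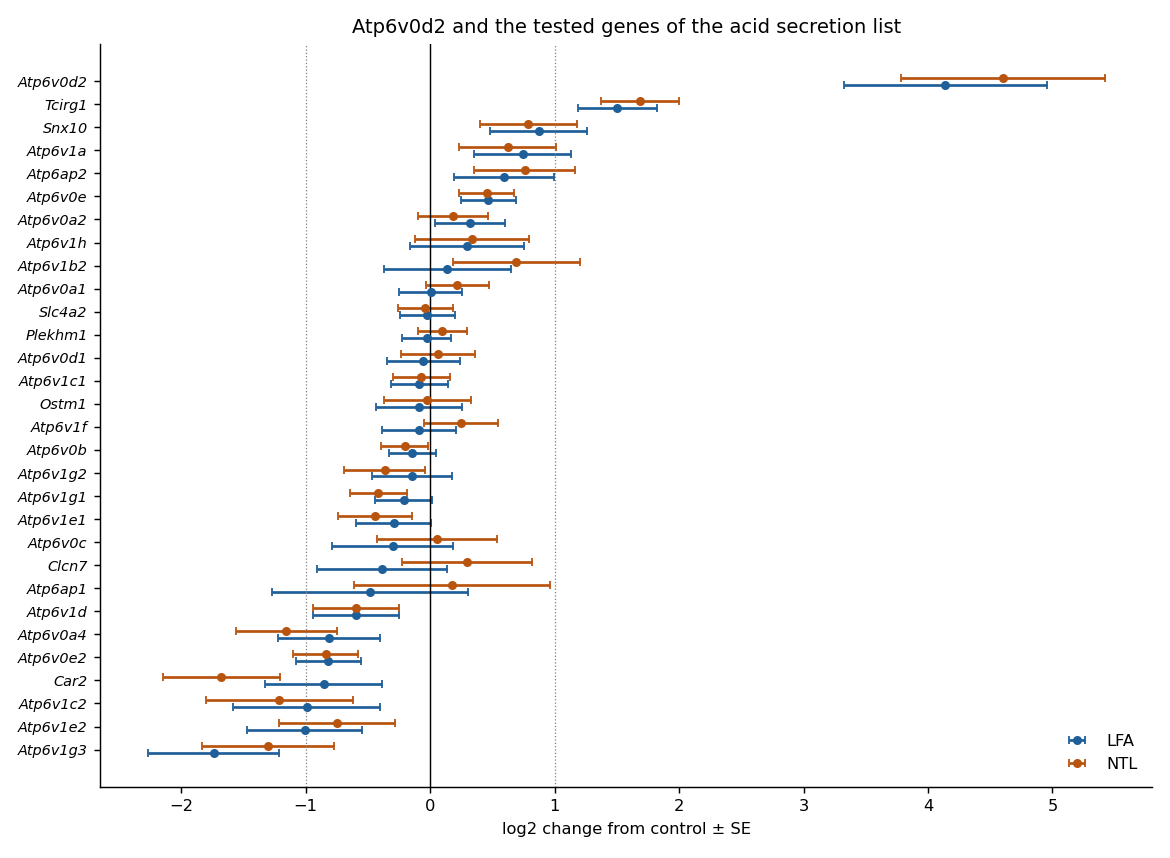
Log2 change from control with its SE in LFA and NTL for Atp6v0d2 and the 29 tested genes of the acid secretion list, ordered by the change in LFA (n = 4 per group). Dotted lines mark a 2-fold change. Atp6v0d2 lies at 4.14 and 4.60, Tcirg1 at 1.50 and 1.69, and Atp6v0d1 at −0.05 and 0.06.

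Of the 37 genes of the RANK signaling list, 5 were called higher in LFA and 7 in NTL, and 0 lower, with medians of 0.29 and 0.42. The shares of all tested probes called higher were 2.21% in LFA and 3.64% in NTL. Tfec, a transcription factor of the MITF family, did not exceed background clearly in the control mice, and its signal was at least 5.33-fold above theirs in LFA, where 3 arrays measured it, and 6.44-fold in NTL (limma adjusted p = 0.0248 and 0.00858). Prdm1, which represses inhibitors of osteoclast formation, rose by 1.45 ± 0.38 and 1.94 ± 0.38, and Fcer1g, an adaptor through which Oscar signals, by 2.07 ± 0.45 in NTL (limma adjusted p = 0.00856). Csf1r, the receptor for the growth factor that macrophages and osteoclast precursors depend on, rose by 1.33 ± 0.23 and 1.68 ± 0.23, while its ligand Csf1 changed by 0.53 ± 0.24 and 0.47 ± 0.24 and was not called. Of the 37 genes, 32 in LFA and 30 in NTL were not called. With only the groups compared in the fit, 0 genes of the list were called in LFA, and with normexp, no filter, the mean of a gene's probes, or the replicate block 3 were. The LFA count fell to 1 without LFA replicate 2 or 4 or control replicate 1, to 2 without control replicate 2 or 4, and to 3 without LFA replicate 3.

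In the list for matrix degradation and attachment, 2 of 15 tested genes were called higher in LFA and 3 in NTL, and 0 lower. The shares of all tested probes called higher were 2.21% and 3.64%. Osteopontin (Spp1), a ligand of the integrin that holds β3, rose by 2.94 ± 0.80 and 3.27 ± 0.80, and cathepsin S (Ctss) by 2.15 ± 0.36 and 2.79 ± 0.36. The macrophage elastase Mmp12 was dim on all control and NTS arrays, none of them well above background, and NTL exceeded control at least 16.2-fold (limma adjusted p = 0.0144), while in LFA it was measured on 3 arrays and not called. The gelatinase Mmp9 and the calcitonin receptor Calcr, both abundant in osteoclasts, were not called. Mmp9 changed by 0.57 ± 0.51 in LFA and −0.15 ± 0.51 in NTL, and Calcr by −0.73 ± 0.31 and −1.02 ± 0.31 (limma adjusted p = 0.171 and 0.0537). Every NTL array was below every control array for Calcr, as for 13.8% of all tested probes. The list's medians were 0.57 and 0.42. Its lowest gene in NTL, Ibsp, named after its values were seen, was at least 2.91-fold below control and was not called. Ibsp was well above background on 2 control arrays and on no NTL array, and it is also in the list of bone forming cell markers. The LFA count of 2 fell to 1 with no filter, the replicate block, or slide as a block, without any single control or NTL array, and without LFA replicate 1, 2, or 4, SFA replicate 3 or 4, or NTS replicate 3. In SFA and NTS limma called 0 genes of all 4 lists.

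**Figure D4:**
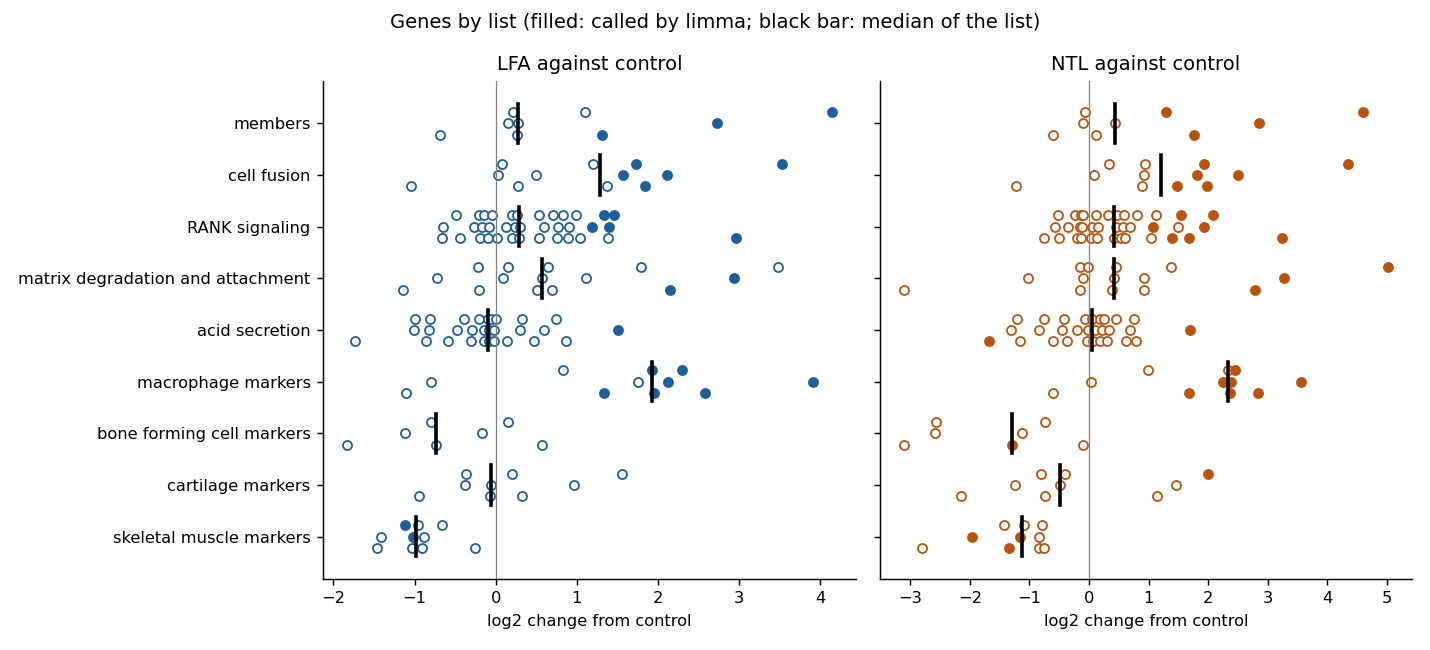
Log2 change from control in LFA (left) and NTL (right) of the 9 genes (top) and of every tested gene of 8 lists. Filled points were called by limma, and the black bar is the median of the list. The bars of the cell fusion and macrophage lists lie highest, at 1.28 and 1.92 in LFA and 1.21 and 2.34 in NTL, and those of the skeletal muscle list at −0.99 and −1.12.

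Markers of other cell types moved with the 4 genes that were high. Of 11 macrophage markers 7 were called higher in both LFA and NTL, led by Marco, a scavenger receptor, at 3.91 ± 0.46 and 3.56 ± 0.46, followed by Fcgr1 and Cd14. In each group 4 were not called, and the list's lowest change was −1.10 in LFA and −0.60 in NTL. Of all tested probes, 2.21% were called higher in LFA and 3.64% in NTL. The summed signal of the macrophage markers, in multiples of the 75th percentile of the array, was 72.7 to 117 in control, 78.1 to 139 in SFA, and 68.7 to 132 in NTS, against 183 to 263 in LFA and 220 to 305 in NTL. Csf1r is in both this list and the RANK signaling list. The sum of 10 skeletal muscle markers was 4109 to 6403 in control, 2195 to 2963 in LFA, and 2094 to 2574 in NTL, with Tnnt3, Myh1, and Myh7 called lower in NTL. In LFA 2 of the 10 were called lower, Myh7 and Acta1, the latter named after its values were seen. The muscle label of the tissue held, with all 10 markers well above background on every array. The part of either shift in the signals of the 9 genes was not tested.
Bone and cartilage were also looked for, because the diaphragm attaches to the ribs. Of 10 bone forming cell markers 7 were tested. In NTL 1 was called, Alpl, which fell by 1.30 on the log2 scale, and in LFA 0, where Alpl changed by −1.12 ± 0.35 (limma adjusted p = 0.0696). Their summed signal was 3.30 to 15.2 in control, 1.26 to 5.31 in LFA, and 1.25 to 2.19 in NTL, and Sp7, Dmp1, and Sost did not pass the filter. Of 9 tested cartilage markers 1 was called against control, Comp, which rose by 1.99 ± 0.60 in NTL. The cartilage sums were 2.56 to 6.01 in control, 2.55 to 12.8 in SFA, 3.49 to 22.4 in LFA, 4.41 to 13.6 in NTS, and 9.08 to 18.0 in NTL. The list's median change was −0.05 in LFA, −0.48 in NTL, and 0.71 in NTS. Against NTS, 3 of the cartilage markers were called lower in NTL, so the list did not follow fiber length. Of 9 T and B cell markers and 8 mesothelial markers 0 were called in any fiber group.
The liver marker list was chosen after seeing the data, as was that for lung. All 8 liver markers were tested and 0 called, but their sum ran from 16.5 to 5301 over the arrays and was 2006 or more on 5 of them: SFA replicate 2, LFA replicates 1 and 3, and NTS replicates 3 and 4. Of 8 lung markers 4 were tested and 0 called, with sums of 6.04 to 23.2. Without the 5 arrays with high liver sums, the same 3 of the 9 genes were called in LFA, the same 4 in NTL, and 0 in SFA and NTS, and Oscar joined the 4 genes called between NTL and NTS.

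**Figure D5:**
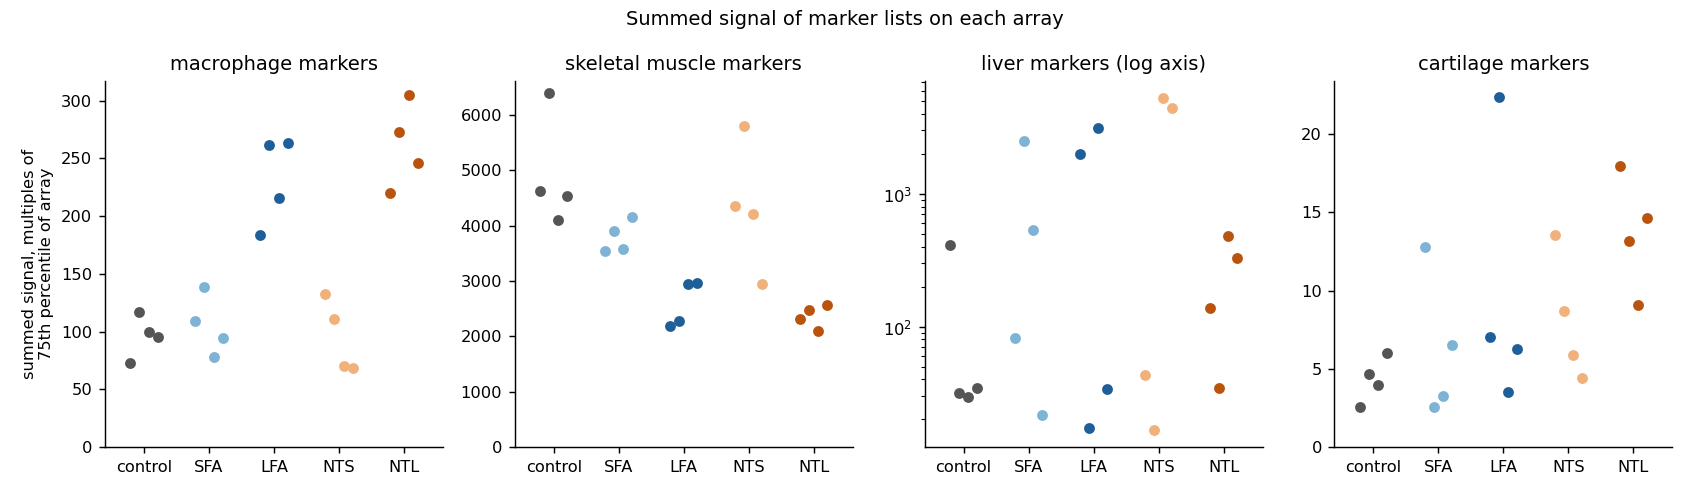
Summed signal of 4 marker lists on each array, in multiples of the array's 75th percentile. Every LFA and NTL array lies above every control array for macrophage markers and below every control array for skeletal muscle markers, and 5 arrays in the SFA, LFA, and NTS groups lie at 2006 or above for liver markers (log axis).

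The genes with the most similar profiles were found for the 3 genes called in both LFA and NTL, by the root mean square difference of their log2 signals over the 20 arrays after each was centered on its mean, among 17708 named genes. For Atp6v0d2 they were Spp1 (0.75), the cytokine Il1b (0.83), and Rgs1 (0.84), a regulator of G protein signaling. For Tnfsf11 they were the prostaglandin receptor Ptger2 (0.44), cyclooxygenase 2 (Ptgs2, 0.56), and Bcl2a1c (0.56), which changed by 2.54 to 2.58 in LFA and 2.53 to 2.97 in NTL. For Tnfrsf11b they were Naaa (0.24), Clca2 (0.27), and Pcdh7 (0.30), at 1.01 to 1.65 in LFA and 1.24 to 1.66 in NTL. None of the 9 genes was among the 3 nearest of another.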

How the data were processed

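Diaphragm RNA of 20 mice, 1 mouse per array, was hybridized by the authors to 1-color Agilent arrays, and scanned with Agilent Feature Extraction 10.7.3.1 per the submitters' processing notes. The deposited intensity values are Agilent's background-subtracted processed signals. A deposited table of log2 group means, normalized and centered by the authors, served as an alternative for changes only. Samples were grouped by their labels.

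Each processed signal was divided by its array's 75th percentile and log2 was taken. Control spots and outlier spots were left out and spots of a probe averaged. A gene was represented by its brightest probe among those well above background on at least 4 of 20 arrays. The groups were compared in 1 limma fit over all arrays (R 4.3.3, limma 3.58.1), with Benjamini-Hochberg adjustment over 36920 probes and a 2-fold threshold. The fit was tested on simulated data. p-values measure the spread between mice. Comparisons with control share the 4 control arrays. At least N-fold bounds set the bright group's mean against, per array, the lowest signal among probes well above background or the dim probe's own, whichever was higher.

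The members and gene lists were chosen with earlier results of these data known, and the lung and liver lists after seeing the data. Named list genes were the 3 with the largest called change per list, plus Atp6v0d1, Csf1, Csf1r, Dcstamp, Ocstamp, Calcr, and Mmp9. Acta1 and Ibsp were named after their values were seen. The lists were cell fusion, acid secretion, RANK signaling, matrix degradation and attachment, and markers of macrophages, bone forming cells, cartilage, skeletal muscle, T and B cells, mesothelium, lung, and liver. Promoter windows were cut to the 250 bases before the start.

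The arrays lay on 3 slides of 5 to 8 arrays, and slide was tried as a block. Replicate numbers were shared by the groups, but no label says that a number marks a shared litter or batch. Deviations of same-numbered arrays from their group means correlated by 0.22, 0.69, 0.11, and 0.33 between NTL and control, and with mixed or negative signs in the other comparisons. Alternatives were quantile normalization, normexp, other filters, the mean of a gene's probes, only the groups compared, both blocks, the methods' test, and leaving out each array. Figures were drawn with matplotlib 3.10.9.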

Additional observations from a re-analysis of the deposited data

Results flagged for a closer look

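Dixon's test was run on 175 groups of 4 arrays, over the genes named in the report, and marked 6 single arrays as far from the other 3 of their group. Chance flags about 1 in 20 groups. Among the 9 genes it marked Tnfrsf11b in SFA replicate 2, with a log2 signal of −0.99 against 0.16 to 0.27 in the other SFA arrays, and Nfatc1 in NTS replicate 3, with 1.23 against 1.91 to 1.93. Both arrays were among the 5 with high liver marker sums, at 2483 and 5301 multiples of the 75th percentile, and the part of that in either value was not tested. Tfec read −1.84 in NTL replicate 3 against −2.54 to −2.43. Cd14 read 0.55 in control replicate 3 against 0.82 to 0.87. In control replicate 2, Myh7 read 9.13 against 8.01 to 8.15, and Csf1 2.23 against 1.57 to 1.65.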

How the results depend on the processing

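No change of the 9 genes reversed where it was called. Calls of the 9 genes moved as follows. With only probes well above background on all arrays, 1 was called in LFA against control, 2 in NTL against control, and 2 in NTL against NTS, since the dim probes were not tested. The methods' test, whose p-value is for any difference among the 5 groups, called 1 in NTS against control and 2 in LFA against SFA. Only its fold threshold applies to the pair, so these calls are not tests of the pair. Without NTS replicates 3 and 4, limma called 1 in LFA against SFA. With single arrays left out, there were 1 to 3 in LFA against control, 1 without LFA replicate 4, and 0 to 1 in LFA against SFA. There were then 3 to 4 in NTL against control and 3 to 5 in NTL against NTS. In NTL against NTS, 5 were called without NTS replicate 4 or with quantile normalization, and 3 without NTS replicate 2.

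Of all probes, LFA against control had 961 called with no filter, 586 with only the groups compared, 922 with slide as a block, 943 with the methods' test, 2978 without NTS replicates 3 and 4, and 467 (without LFA replicate 2) to 2682 (without NTS replicate 4) leaving out each array. NTL against control had 1325 with slide as a block, 1065 with the methods' test, and 1399 (without NTL replicate 4) to 3078 leaving out each. NTL against NTS had 1783 with only the groups compared, 769 with slide as a block, 1009 with the methods' test, 4698 without NTS replicates 3 and 4, 5608 without the 5 arrays with high liver sums, and 1717 (without NTL replicate 2) to 5436 (without NTS replicate 4). LFA against SFA had 173 with only the groups compared, 716 with the methods' test, and 155 (without LFA replicate 2) to 531. The methods' test called 118 in LFA against NTL, 82 in SFA, and 91 in NTS, again with a p-value over all groups and not for the pair. Leaving out each array gave 0 to 6 in LFA against NTL and 0 to 1 in SFA, where normexp and the filter on all arrays each gave 1.

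In the RANK signaling list, LFA had 3 with the mean of probes, 3 with no filter, 3 with normexp, 0 with only the groups compared, and 1 to 6 leaving out each array, and the methods' test called 1 in NTS. In the acid secretion list, LFA had 0 with only the groups compared, 2 with either added set of arrays left out, and 0 to 2 leaving out each, and NTL had 1 with no filter, slide as a block, or the methods' test and 1 to 2 leaving out each. In the matrix list, LFA had 1 with no filter or slide as a block and 1 to 3 leaving out each. With the replicate block, LFA had 2 acid secretion, 3 RANK signaling, and 1 matrix gene called. The replicate block called the same of the 9 genes in LFA, NTL, and NTL against NTS, 3, 4, and 4, and 1240, 2222, and 2470 of all probes. The authors' table of group means gave changes and no counts. The causes were not tested, except where named. Both sets of left-out arrays were chosen after seeing the data, and the signal over background limits Tnfsf11 and Atp6v0d2 in control.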
